A study of Mus musculus with 20 samples.

Results

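Collagens are the structural proteins of the extracellular matrix, and the genes that encode their alpha chains were followed here in sorted medullary thymic epithelial cells (mTEC). Members were chosen by name, as every gene of the deposited table whose symbol consists of Col, a type number, the letter a and a chain number. This gave 44 genes of 51810, all of which passed the filter on low counts and were among the 28932 genes tested. The study compared 2 genotypes, Trp53-WT and Trp53-cHyper (called WT and cHyper below), in 2 sorted cell types, mTEClo and mTEChi. Each of the 4 groups, each a genotype and a cell type, had 3 libraries of RNA from thymi of mice aged 4 to 5 weeks, with 75000 sorted cells per sample. All groups share the same isolation, in which the stroma was digested with enzymes that included a collagenase and EpCAM-positive cells were enriched on beads before sorting. The labels do not say what cHyper stands for, its allele or driver, the strain, whether animals were pooled and how the sort gates were set. The series is titled for repression by p53, noise of accessible chromatin and tolerance.

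A collagen molecule is built from alpha chains that wind around each other in the endoplasmic reticulum, where prolines and lysines are hydroxylated, and is then secreted and cross-linked. Fibrillar collagens (types I, II, III, V, XI, XXIV and XXVII) form the banded fibrils of bone, skin, tendon and cartilage, and the fibril-associated collagens known as FACIT decorate them. Type IV builds the sheet of basement membranes on which epithelia rest, type VI forms beaded filaments next to it, and types VII and XVII anchor epithelia to the underlying stroma. mTEC display self-antigens of other tissues to developing T cells, and the mTEChi subset, rich in the regulator Aire, is known to transcribe many genes that are otherwise restricted to single tissues. Matrix genes of an epithelium and matrix genes of distant tissues such as cartilage or bone can therefore both appear in these cells.

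Among the members, 3 pairs of type IV genes lie head to head, with starts on opposite strands. The ratio of the 2 chains overlapped between the cell types for Col4a1 and Col4a2 and did not for the other 2 pairs (values below), and promoter windows are shown for both genes of the first pair and for Col4a4, whose window also holds the start of Col4a3, its partner in the closer of the other pairs. In the deposited annotation (mm10), Col4a2 starts at 11312805 on the plus strand of chromosome 8 and Col4a1 at 11312826 on the minus strand, so the 2 transcripts overlap by their first bases. Col4a3 and Col4a4 start 72 bases apart on chromosome 1, and Col4a5 and Col4a6 start 1309 bases apart on chromosome X. The windows below run from 250 bases before to 50 bases after a RefSeq transcript start (GRCm38.p6) and are written 5′ to 3′ on the strand of the gene. Capitals mark GC boxes (GGGCGG, or CCGCCC on the other strand) and CCAAT boxes (CCAAT or ATTGG). No marked motif overlapped another.
Col4a1, chr8:11312777-11313076, minus strand: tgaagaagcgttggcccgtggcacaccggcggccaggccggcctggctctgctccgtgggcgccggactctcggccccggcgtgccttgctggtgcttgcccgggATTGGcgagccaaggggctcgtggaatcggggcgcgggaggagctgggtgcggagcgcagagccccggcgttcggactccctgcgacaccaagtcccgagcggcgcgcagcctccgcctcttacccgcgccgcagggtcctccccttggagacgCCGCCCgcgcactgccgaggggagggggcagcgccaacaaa
Col4a2, chr8:11312555-11312854, plus strand: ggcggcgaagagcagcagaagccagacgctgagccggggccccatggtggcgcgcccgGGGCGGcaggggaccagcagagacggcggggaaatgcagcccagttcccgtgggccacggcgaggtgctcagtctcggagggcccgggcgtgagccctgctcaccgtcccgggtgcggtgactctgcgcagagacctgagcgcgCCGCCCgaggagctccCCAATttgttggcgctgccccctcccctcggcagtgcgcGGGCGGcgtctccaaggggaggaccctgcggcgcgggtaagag
Col4a4, chr1:82586800-82587099, minus strand: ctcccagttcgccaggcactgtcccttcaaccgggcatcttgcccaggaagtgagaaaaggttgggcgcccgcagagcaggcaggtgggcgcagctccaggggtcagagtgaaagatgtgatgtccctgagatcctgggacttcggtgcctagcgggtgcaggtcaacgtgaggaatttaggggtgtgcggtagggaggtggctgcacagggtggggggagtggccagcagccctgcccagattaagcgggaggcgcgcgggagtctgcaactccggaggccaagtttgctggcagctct
The Col4a1 and Col4a2 windows share 78 bases. The Col4a4 window holds none of the 3 motifs searched (the third was TATAAA, on either strand) and runs over the annotated start of Col4a3. A window was found for 35 of the 44 members. The GC box was in 22 of the 35, the CCAAT box in 13 and TATAAA in 5. Of all 32851 windows of the same length, 35.7%, 37.4% and 13.6% held them. A match describes the letters and not a site of binding.

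Library totals ran from 22.02 to 47.93 M fragments, with at most 25.31 M in replicate 3 of each group. In replicate 3 of every group Xist stood at 1049 CPM (counts per 1 M) or above and Ddx3y at 0 fragments, and replicates 1 and 2 had Xist at 7.77 CPM or below and Ddx3y at 2745 fragments or above. Replicate 3 is also the one whose sample carries no run tag, so sex, depth and run scheme go together with the replicate number, which each group holds once. Nothing in the labels ties replicates to separate animals, and the p-values therefore reflect only how these libraries vary. Between replicates 1 and 2 this may be technical variation. Between replicate 3 and the others it includes the difference in Xist and Ddx3y, and so in sex. The mTEC markers were present throughout, with Epcam at 555 ± 37 CPM in WT mTEClo and 469 ± 52.5 in WT mTEChi (mean ± SD, n = 3). Aire stood at 14.3 ± 2.6 CPM in WT mTEClo and 1919.9 ± 2.83 in WT mTEChi.

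Collagen RNA was most abundant in mTEClo and spread over more members in mTEChi. Levels of different genes are compared per length only, in TPM (transcripts in 1 M, after correction for gene length) as the authors deposited them, and library values are given in the order of replicates 1, 2 and 3. Summed over the 44 members, collagen RNA came to 1882, 1846 and 1405 TPM in the WT and 1525, 1582 and 1139 in the cHyper libraries of mTEClo. In mTEChi it came to 599, 574 and 549.7 TPM in WT and 532, 530.2 and 474 in cHyper. Every mTEClo library lay above every mTEChi library. The genotypes overlapped in mTEClo (1711 ± 265 and 1415 ± 241 TPM, mean ± SD, n = 3), whereas in mTEChi each cHyper library lay below each WT library (574 ± 24.5 and 512 ± 32.8). In bulk RNA, fewer cells of a type and less RNA per cell cannot be told apart.

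**Figure D1:**
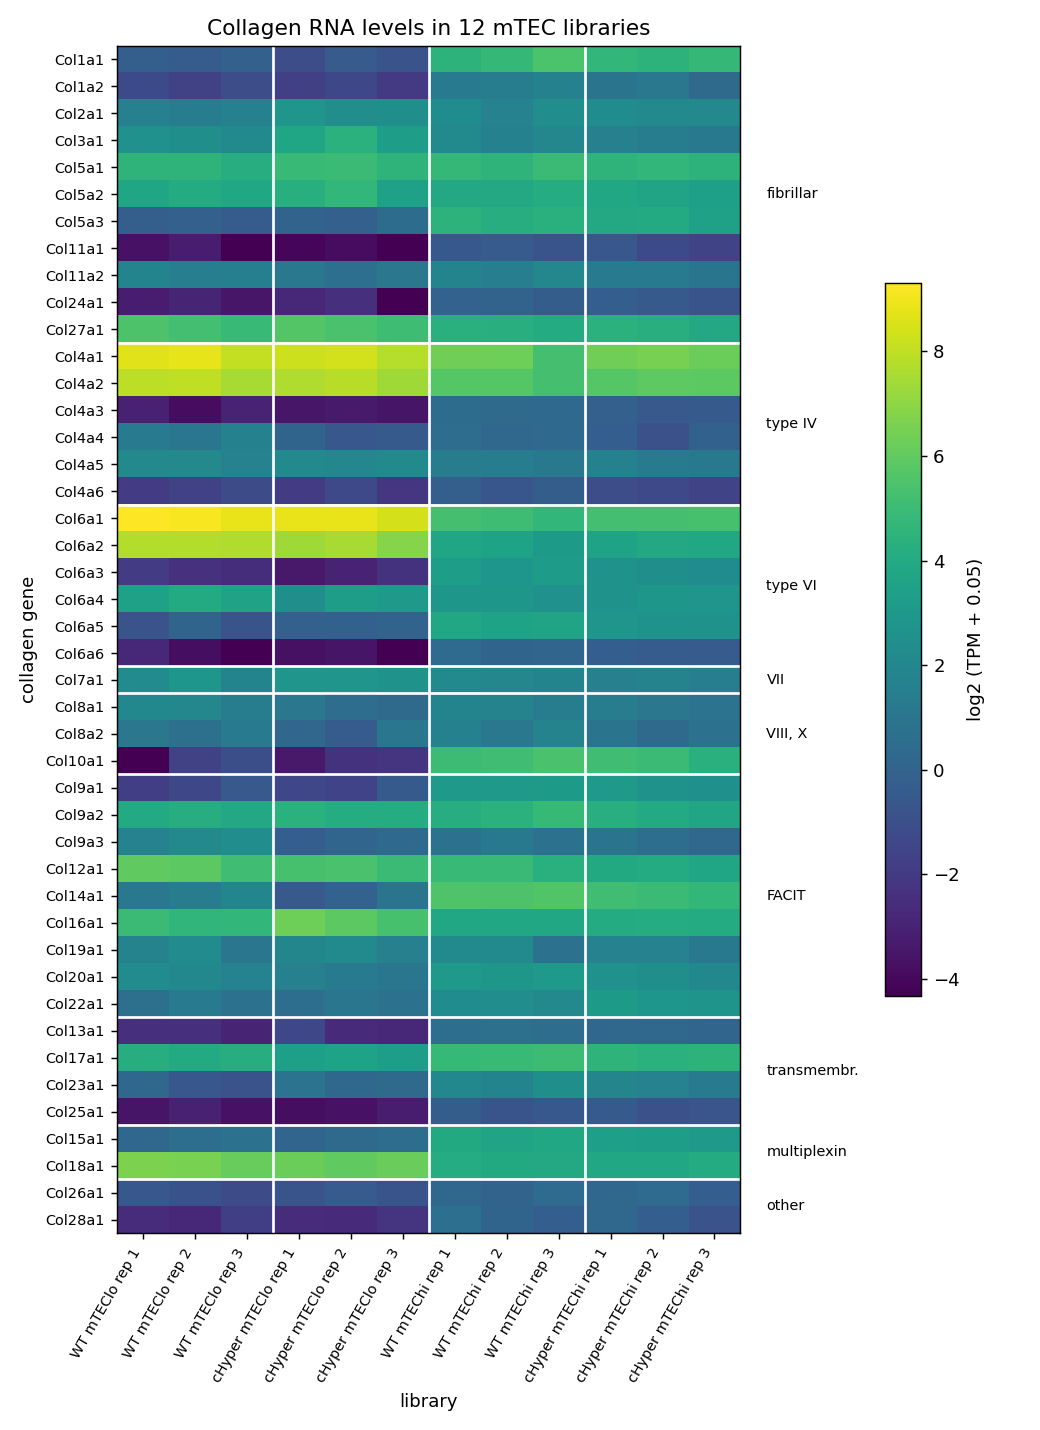
Level of each of the 44 collagen genes (rows, by class) in each of the 12 libraries (columns, 4 groups of 3), as log2 of TPM + 0.05 in colour. Col4a1, Col4a2, Col6a1 and Col6a2 are the brightest rows of mTEClo, and rows that are dark in mTEClo such as Col10a1, Col1a1 and Col6a3 are lighter in all mTEChi libraries.

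In WT mTEClo the family was dominated by 4 chains. Col6a1 stood at 558 ± 81.7 TPM, Col4a1 at 376 ± 95.1, Col4a2 at 229 ± 42.2 and Col6a2 at 209 ± 5.47. Of these neighbours in the order, only Col4a2 and Col6a2 overlapped between libraries. Together the 4 made up 80.2% ± 0.37 of collagen TPM in WT mTEClo and 75.3% ± 1.65 in cHyper mTEClo, against 27.6% ± 6.01 in WT mTEChi and 37.6% ± 2.71 in cHyper mTEChi. Below them in WT mTEClo came the basement membrane multiplexin Col18a1, the source of endostatin (87.6 ± 15.2 TPM), the FACIT gene Col12a1 (51.7 ± 14.9), the fibrillar Col27a1 (37.5 ± 8.42), the FACIT gene Col16a1 (27.6 ± 3.5) and Col5a1 of type V (21.5 ± 3.17). Col12a1 and Col27a1 overlapped, as did Col27a1 and Col16a1.

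In WT mTEChi the order was flatter and other types came forward. Col4a1 and Col4a2 still led at 66.8 ± 23.9 and 48.2 ± 7.62 TPM, but the FACIT gene Col14a1 (47.2 ± 1.8) overlapped Col4a2. Col10a1, known as the collagen of hypertrophic cartilage, followed at 36.3 ± 4.55 TPM, then Col6a1 (33 ± 6.54), Col1a1, the main chain of bone and skin fibrils (31.2 ± 11.3), and Col17a1, a transmembrane collagen of the hemidesmosome (29.7 ± 2.51). From Col10a1 to Col17a1 each gene overlapped its neighbour. Col12a1 (27.1 ± 5.87), Col5a1 (27.1 ± 3.75), Col9a2 of cartilage type IX (22.2 ± 5.19) and Col5a3 (20.2 ± 2.19) also exceeded 20 TPM. The number of members with a group mean above 1 TPM was 27 in WT mTEClo, 28 in cHyper mTEClo, 40 in WT mTEChi and 36 in cHyper mTEChi. The same count over all genes was not made, so this difference is not shown to be particular to collagens.

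The comparison of mTEChi with mTEClo within WT asked how the family differs between the cell types. Tests used edgeR on fragment counts, and a gene is called where its Benjamini-Hochberg adjusted p over all genes tested was under 0.05. In WT, 23 members were higher and 14 lower in mTEChi, 84.1% of the family, against 69.5% of all genes called either way (40.2% higher and 29.4% lower). In cHyper 21 were higher and 14 lower, 79.5% of the family, against 64.5% of all genes (38.7% and 25.8%). The median log2 difference of the 44 members was 0.50 in WT and 0.40 in cHyper, beside 0.12 and 0.13 over all genes. Scaling by library totals raised the median of all genes to 0.34 and 0.30 and that of the collagens to 0.71 and 0.58. Without overlap between the groups 22 members lay higher and 13 lower in WT, against 41.8% and 31.4% of all genes (73.3% either way), and 21 and 13 in cHyper, against 40.3% and 28.4% (68.7% either way). All 37 calls in WT and all 35 in cHyper had the same direction in replicates 1 and 2 as in replicate 3. The calls were made from these same libraries, so this is no separate check. Most classes held members of both directions. All 4 transmembrane collagens and Col26a1 and Col28a1 were higher in mTEChi of both genotypes, and Col4a1, Col4a2, Col6a1, Col6a2 and Col18a1 were lower.

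**Figure D2:**
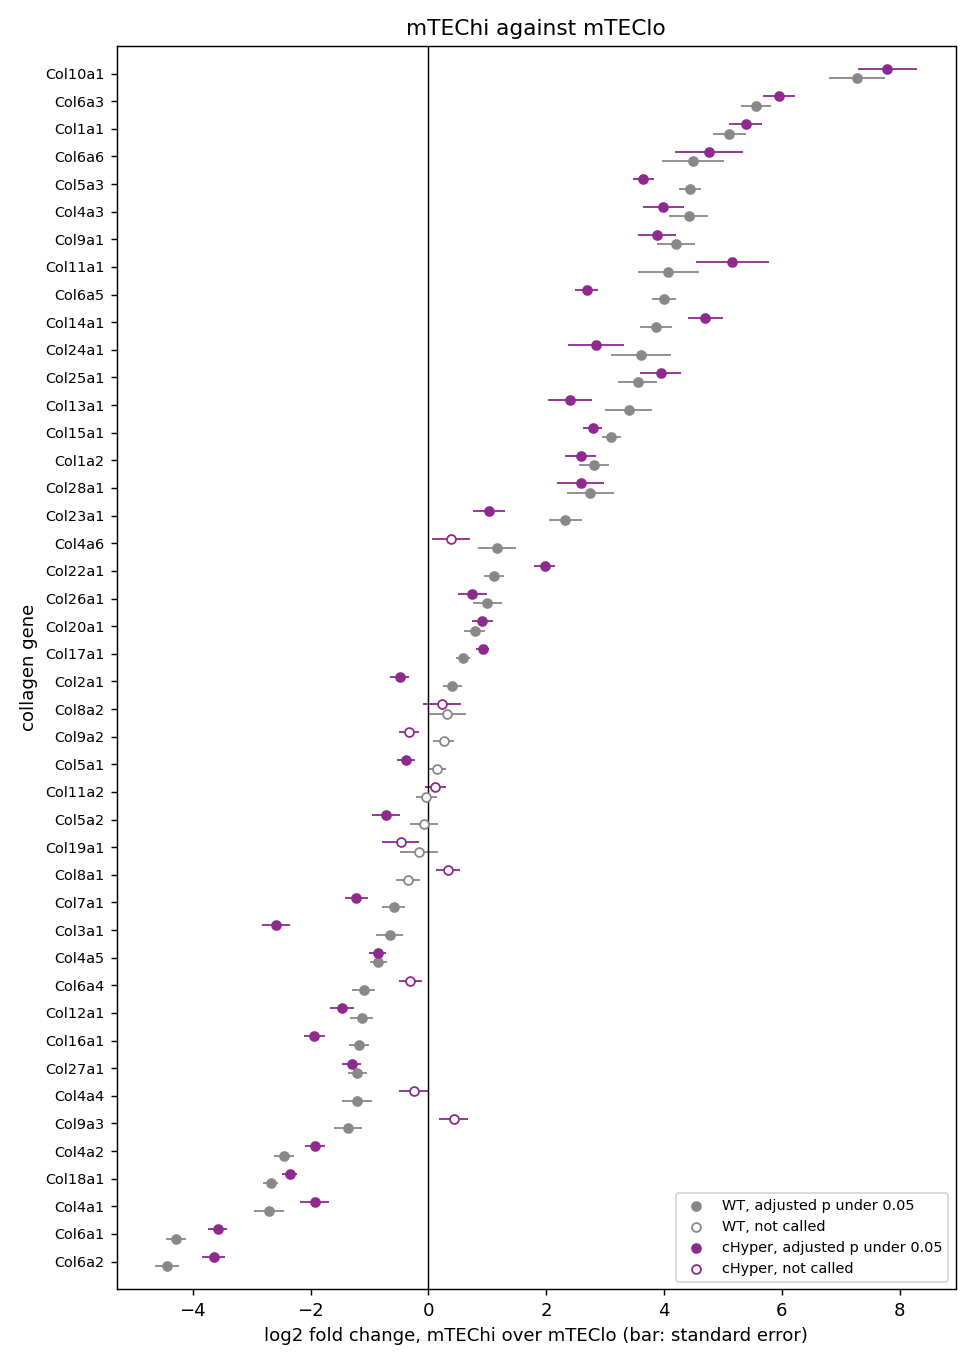
Log2 fold change of mTEChi over mTEClo (x axis) for the 44 collagen genes (y axis), in WT (grey) and cHyper (purple), with bars of 1 standard error; filled points have an adjusted p under 0.05. The WT points run from Col6a2, at -4.43, to Col10a1, at 7.27, and the cHyper points run between the same genes, from -3.64 to 7.79.

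The basement membrane chains Col4a1 (ENSMUSG00000031502, chromosome 8, 11198423 to 11312826) and Col4a2 (ENSMUSG00000031503, chromosome 8, 11312805 to 11449287) were lower in mTEChi. Levels below are CPM scaled by TMM, edgeR's trimmed mean method. Col4a1 read 1409, 1563 and 958 CPM in WT mTEClo and 234, 246 and 125 in WT mTEChi, and 1095, 1217 and 771 in cHyper mTEClo and 255, 298 and 256 in cHyper mTEChi. Col4a2 read 747, 805 and 575 CPM in WT mTEClo and 133, 145 and 112 in WT mTEChi, and 641, 731 and 512 in cHyper mTEClo and 143, 177 and 177 in cHyper mTEChi. No mTEChi library of either gene reached the mTEClo range, and replicate 3 was the lowest of its group for Col4a1 in every group except cHyper mTEChi. Col4a1 was 6.49-fold lower in WT (log2 -2.70, SE 0.25, adjusted p = 2.56e-07) and 3.81-fold lower in cHyper (log2 -1.93). Col4a2 was 5.46-fold lower in WT (log2 -2.45, SE 0.17, adjusted p = 7.59e-09) and 3.79-fold lower in cHyper (log2 -1.92).

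The other type IV chains, which build the specialised basement membranes of kidney, lung and smooth muscle, did not move as 1 group. Counting all 6 chains, 2 were higher and 4 lower in WT mTEChi, and 1 was higher and 3 were lower in cHyper mTEChi. Of all genes, 40.2% were higher and 29.4% lower in WT, and 38.7% and 25.8% in cHyper. Col4a3 (ENSMUSG00000079465, chromosome 1, 82586921 to 82722059) was close to 0 in WT mTEClo, at 0.307, 0.0926 and 0.375 CPM, and stood at 5.31, 5.13 and 5.16 in WT mTEChi. In cHyper it read 0.183, 0.23 and 0.163 in mTEClo and 3.51, 2.91 and 3.04 in mTEChi. Its neighbour Col4a4 (ENSMUSG00000067158, chromosome 1, 82448423 to 82586849) went the other way in WT, from 12, 9.95 and 15.9 CPM in mTEClo to 5.77, 4.96 and 5.56 in mTEChi, with 5.004, 3.1 and 3.3 in cHyper mTEClo and 3.4, 2.19 and 4.19 in cHyper mTEChi. Col4a3 was thus 21.4-fold higher (log2 4.42, SE 0.33, adjusted p = 2.30e-08) and Col4a4 2.32-fold lower (log2 -1.21, SE 0.25, adjusted p = 5.03e-04) in WT mTEChi. In cHyper Col4a3 was called higher (log2 3.99) and Col4a4 was not called (log2 -0.24, adjusted p = 0.425). The gene C430014B12Rik overlaps 5.65% of the exon bases of Col4a3 on the opposite strand, by the exon coordinates deposited with the counts. No source used here gives the strand setting of the counting, so reads from the 2 genes may not have been separated. Of the X-linked pair, Col4a5 was lower in mTEChi of both genotypes (log2 -0.85 and -0.86) and Col4a6 was called higher in WT only (log2 1.17, and 0.38 with adjusted p = 0.313 in cHyper). Whether these differences depend on the genotype was tested as the difference of effects, and neither Col4a4 (adjusted p = 0.211) nor Col4a6 (0.47) passed.

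Type VI collagen, whose filament is assembled from Col6a1, Col6a2 and another, exchangeable chain, held both strongly higher and strongly lower members. Called higher and lower were 3 and 3 in WT, beside 40.2% and 29.4% of all genes. In cHyper these were 3 and 2, beside 38.7% and 25.8%. Col6a1 (ENSMUSG00000001119, chromosome 10, 76708792 to 76726168) read 1247, 1186 and 990.1 CPM in WT mTEClo and 66.5, 60.3 and 49.5 in WT mTEChi. Col6a2 (ENSMUSG00000020241, chromosome 10, 76595762 to 76623630) read 796, 839 and 813 in mTEClo and 42.6, 40.2 and 30.6 in mTEChi. In cHyper the same genes read 949, 997 and 699 (Col6a1) and 651, 752 and 435 (Col6a2) CPM in mTEClo, and 66.7, 75.6 and 79.7 (Col6a1) and 40.4, 54.3 and 52.5 (Col6a2) in mTEChi. Of the 44 members these 2 were lower by the most in both genotypes, by 19.4-fold (log2 -4.28, SE 0.17) and 21.6-fold (log2 -4.43, SE 0.21) in WT, and by 11.9-fold and 12.5-fold in cHyper.

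The exchangeable chains of type VI differed from Col6a1 and Col6a2. Col6a3 was nearly absent from WT mTEClo at 1.11, 0.81 and 0.704 CPM and reached 45.5, 34.8 and 46.9 in WT mTEChi (47.1-fold, adjusted p = 1.82e-10). In cHyper it read 0.251, 0.437 and 0.814 in mTEClo and 30.03, 29.4 and 26.4 in mTEChi. Col6a5 read 2.17, 4.42 and 2.39 CPM in WT mTEClo and 50.6, 46.5 and 49.1 in WT mTEChi, a 16-fold difference, and Col6a6 read 0.378, 0.0926 and 0 in mTEClo and 4.54, 3.81 and 4.04 in mTEChi (22.4-fold). Their log2 differences in cHyper were 5.95 for Col6a3, 2.69 for Col6a5 and 4.76 for Col6a6, all called. Col6a4, a neighbour of Col6a5 and Col6a6 on chromosome 9, was the exception, at 51.6 ± 11.7 CPM in WT mTEClo and 24.1 ± 2.11 in WT mTEChi (log2 -1.10, adjusted p = 1.39e-04). It was not called in cHyper (log2 -0.31, adjusted p = 0.174), and its difference of effects did not pass (log2 0.79, adjusted p = 0.174).

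Fibrillar collagens ranged in WT mTEClo from 37.5 TPM for Col27a1 to 0.0275 for Col11a1. Of 11 fibrillar members, 6 were higher and 2 lower in WT mTEChi, and 5 were higher and 5 lower in cHyper mTEChi. The shares of all genes were 40.2% and 29.4% in WT and 38.7% and 25.8% in cHyper. Col1a1 (ENSMUSG00000001506, chromosome 11, 94936224 to 94953042) read 2.48, 2.27 and 2.67 CPM in WT mTEClo and 56.8, 73.8 and 124 in WT mTEChi, and 1.28, 2.25 and 1.59 in cHyper mTEClo and 69.5, 64.9 and 81.2 in cHyper mTEChi. Its partner Col1a2 read 2.03, 1.6 and 2.44 CPM in WT mTEClo and 11.9, 13.7 and 16.4 in WT mTEChi, and 1.44, 2.07 and 1.14 in cHyper mTEClo and 9.33, 11.9 and 7.03 in cHyper mTEChi. Col1a1 was 34.4-fold higher in WT mTEChi (log2 5.11, SE 0.28, adjusted p = 9.19e-10) and Col1a2 7.02-fold (log2 2.81, SE 0.25, adjusted p = 1.70e-07).

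Col5a3, the rarer chain of type V, read 2.48, 2.78 and 2.44 CPM in WT mTEClo and 59.2, 51.2 and 57.9 in WT mTEChi, and 3.06, 2.78 and 4.32 in cHyper mTEClo and 42.1, 49.1 and 34.2 in cHyper mTEChi. It was 21.7-fold higher in WT mTEChi and 12.6-fold in cHyper. The major type V chains Col5a1 (86 ± 11.2 and 95 ± 16.3 CPM in WT) and Col5a2 (65.6 ± 10.3 and 62.2 ± 8.79) were not called in WT. In cHyper both were called lower (log2 -0.38 and -0.73), but the difference of effects passed for neither (adjusted p = 0.273 and 0.409). The Col5a2 call ended without replicate 2 of cHyper mTEClo (adjusted p = 0.121). The Col5a1 call ended without replicate 1 or 2 of cHyper mTEClo or replicate 1 or 3 of cHyper mTEChi (0.071 to 0.166). It also ended with DESeq2 and with either other scaling. Col24a1 read 0.189, 0.301 and 0.141 CPM in WT mTEClo and 2.7, 2.99 and 2.49 in WT mTEChi, and 0.343, 0.483 and 0 in cHyper mTEClo and 2.48, 2.28 and 1.85 in cHyper mTEChi (log2 3.61 and 2.85). Col27a1, a fibrillar collagen first known from cartilage, went the other way, from 268, 234 and 181 CPM to 101, 103 and 91.4 in WT and from 309, 261 and 201 to 111, 113 and 87.6 in cHyper (log2 -1.21 and -1.30). Col3a1 was also lower in mTEChi, by log2 -0.65 in WT (adjusted p = 0.0203) and -2.59 in cHyper, and the WT call ended without replicate 1 of WT mTEClo or replicate 2 of WT mTEChi (0.0573 to 0.0649) and with library totals as the scaling.

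Cartilage collagens separated by chain. Col10a1 (ENSMUSG00000039462, chromosome 10, 34389981 to 34397085) had the largest difference of the 44 members in both genotypes. It read 0, 0.393 and 0.657 CPM in WT mTEClo (0, 17 and 14 fragments) and 39.2, 45.2 and 55.5 in WT mTEChi, and 0.0685, 0.23 and 0.244 in cHyper mTEClo and 44.9, 42.6 and 28.3 in cHyper mTEChi. Its fitted difference was 155-fold in WT (log2 7.27, SE 0.48, adjusted p = 5.30e-09) and 222-fold in cHyper (log2 7.79, SE 0.51). Of type XI, which forms the core of cartilage fibrils, Col11a1 read 0.165, 0.324 and 0 CPM in WT mTEClo and 3.1, 3.68 and 2.89 in WT mTEChi, and 0.0457, 0.115 and 0 in cHyper mTEClo and 3.14, 2.08 and 1.69 in cHyper mTEChi. It was higher in mTEChi of both genotypes (log2 4.07 and 5.16), while its partner Col11a2 was called in neither (log2 -0.04 and 0.12).

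Type IX, which coats cartilage fibrils, split over its 3 chains. Col9a1 read 0.543, 0.81 and 1.6 CPM in WT mTEClo and 15.7, 16.6 and 18.5 in WT mTEChi, and 0.777, 0.713 and 1.59 in cHyper mTEClo and 16.4, 13.6 and 13.2 in cHyper mTEChi, and was 18.5-fold and 14.7-fold higher in mTEChi. Col9a2 was called in neither genotype (23.6 ± 2.21 and 28.3 ± 8.05 CPM in WT). Col9a3 was 2.57-fold lower in WT mTEChi (log2 -1.36, adjusted p = 1.29e-04). In cHyper it was not called (log2 0.43, adjusted p = 0.146). Col2a1, the main fibril chain of cartilage, was called higher in WT (log2 0.41, adjusted p = 0.0394) and lower in cHyper (log2 -0.49, adjusted p = 0.0163). The difference of effects did not pass (log2 -0.89, adjusted p = 0.0638). The WT call ended without replicate 1 or 2 of WT mTEClo or replicate 1 or 3 of WT mTEChi. Leaving out replicate 1 or 3 of cHyper mTEClo or replicate 2 or 3 of cHyper mTEChi ended it too (0.0506 to 0.291 over these fits). That call also ended with no filter, with limma-voom, with replicates 1 and 2 only and with only the WT libraries. The cHyper call ended without replicate 1 of cHyper mTEClo (0.0637) and with library totals as the scaling.

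Other genes of cartilage matrix were listed beside these collagens. Of 14, 9 were higher and 3 lower in WT mTEChi, against 40.2% and 29.4% of all genes. In cHyper mTEChi 10 were higher and 2 lower, against 38.7% and 25.8%. The proteoglycan gene Acan stood at 0.0547 ± 0.0359 CPM in WT mTEClo and 22.1 ± 5.47 in WT mTEChi, and Comp, a cartilage glycoprotein that binds collagen, at 0.101 ± 0.116 and 18.8 ± 6.24. Hapln1, which links Acan to hyaluronan, stood at 0.155 ± 0.148 and 11.3 ± 0.613. Sox9, the transcription factor of chondrocytes that is also expressed in many epithelia, was lower in mTEChi (179.6 ± 12.6 and 64 ± 5.67 CPM, log2 -1.49).

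Among the FACIT genes that bind fibrils outside cartilage, Col14a1 and Col12a1, which are close relatives, went opposite ways. Of all 9 FACIT members, 4 were higher and 3 lower in WT mTEChi, against 40.2% and 29.4% of all genes. In cHyper mTEChi 4 were higher and 2 lower, against 38.7% and 25.8%. Col14a1 (ENSMUSG00000022371, chromosome 15, 55307750 to 55520803) read 6.71, 9.03 and 12.5 CPM in WT mTEClo and 129, 131 and 146 in WT mTEChi, and 2.17, 3.13 and 5.95 in cHyper mTEClo and 99.2, 98.7 and 83.5 in cHyper mTEChi. It was 14.6-fold higher in WT mTEChi and 26-fold in cHyper. Col12a1 read 428, 419 and 254 CPM in WT mTEClo and 179, 191 and 133 in WT mTEChi, and 295, 315 and 219 in cHyper mTEClo and 97.3, 113 and 89.99 in cHyper mTEChi. It was 2.19-fold and 2.76-fold lower in mTEChi. Col16a1 was lower too (log2 -1.18 and -1.94), and Col22a1, a collagen of tissue junctions such as that of muscle and tendon, was higher (log2 1.11 and 1.97). Col20a1 was higher as well (log2 0.78 and 0.92), and Col19a1 was called in neither genotype (10.8 ± 4.5 and 9.62 ± 3.997 CPM in WT). With the replicate number as a block, Col19a1 passed in cHyper (adjusted p = 0.0309).

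All 4 transmembrane collagens were higher in mTEChi, in both genotypes, against 40.2% of all genes in WT and 38.7% in cHyper. Col13a1, a collagen of the neuromuscular junction, read 0.283, 0.301 and 0.188 CPM in WT mTEClo and 2.65, 3.05 and 2.85 in WT mTEChi, with 0.754, 0.23 and 0.204 in cHyper mTEClo and 2.13, 2.31 and 2.18 in cHyper mTEChi. Col25a1, a collagen of neurons, read 0.213, 0.417 and 0.188 in WT mTEClo and 3.82, 2.86 and 3.46 in WT mTEChi, with 0.137, 0.184 and 0.326 in cHyper mTEClo and 3.56, 2.68 and 3.21 in cHyper mTEChi. Col23a1 read 2.95, 1.62 and 1.41 in WT mTEClo and 8.85, 8.31 and 13.5 in WT mTEChi, with 4.75, 3.24 and 3.42 in cHyper mTEClo and 8.56, 8.23 and 6.5 in cHyper mTEChi. These 3 were 10.6-fold, 11.7-fold and 5.01-fold higher in WT mTEChi, and 5.28-fold, 15.4-fold and 2.04-fold in cHyper. Col17a1, already abundant in mTEClo, was 1.5-fold higher in WT mTEChi (48.7 ± 2.71 and 73.3 ± 9.9 CPM) and 1.89-fold in cHyper.

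The 2 multiplexins, which are basement membrane proteoglycans, moved in opposite directions. Col15a1 read 3.26, 4.44 and 4.97 CPM in WT mTEClo and 38.1, 32.7 and 37.5 in WT mTEChi, and 3.13, 3.91 and 4.11 in cHyper mTEClo and 26.5, 26.6 and 23.7 in cHyper mTEChi (8.62-fold and 6.92-fold higher). Col18a1 read 306, 319 and 237 CPM in WT mTEClo and 46, 44.8 and 44.4 in WT mTEChi, and 250.2, 216 and 239 in cHyper mTEClo and 41.1, 44.8 and 52.2 in cHyper mTEChi (6.38-fold and 5.11-fold lower). Col7a1, the anchoring fibril collagen of skin, read 22.1, 34.9 and 17.2 CPM in WT mTEClo and 17.5, 16.7 and 15.4 in WT mTEChi, where the groups overlapped, and 33.3, 33.5 and 29.4 in cHyper mTEClo and 13, 15.4 and 12.8 in cHyper mTEChi, where they did not. It was lower in both (log2 -0.59 and -1.22), and the WT call ended without replicate 2 of WT mTEClo (adjusted p = 0.0786) and with library totals as the scaling. Col28a1 read 0.26, 0.231 and 0.563 CPM in WT mTEClo and 2.84, 2.06 and 1.66 in WT mTEChi, and 0.274, 0.253 and 0.366 in cHyper mTEClo and 2.35, 1.71 and 1.15 in cHyper mTEChi (log2 2.75 and 2.59). Col26a1 was higher by log2 0.999 in WT and 0.75 in cHyper, where the call ended without replicate 1 or 3 of cHyper mTEClo or replicate 2 of cHyper mTEChi (0.0542 to 0.0804). The network collagens Col8a1 and Col8a2 were called in neither genotype (log2 from -0.34 to 0.33).

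Because chains of a type assemble in fixed or exchangeable ratios, the balance of partners was followed as a ratio of TPM within each library. For 3 pairs the ratios overlapped between the cell types in both genotypes. Col4a1 over Col4a2 was 1.67, 1.72 and 1.48 in WT mTEClo and 1.56, 1.51 and 0.995 in WT mTEChi, and Col6a1 over Col6a2 was 2.98, 2.69 and 2.32 in mTEClo and 2.97, 2.85 and 3.08 in mTEChi. Each of these chains was several times lower in mTEChi. The other such pair was Col5a1 over Col5a2 (1.5 and 1.71 on average in WT mTEClo and WT mTEChi). For other pairs the ratios of the cell types did not overlap. Col1a1 over Col1a2 was 2.31, 2.69 and 2.08 in WT mTEClo and 9.01, 10.2 and 14.3 in WT mTEChi. Col4a3 over Col4a4, the pair whose shared window is printed above, was 0.0271, 0.0099 and 0.0252 in mTEClo and 0.979, 1.1 and 0.989 in mTEChi. Col6a1 over Col6a3 averaged 3637 in WT mTEClo, where Col6a3 was close to 0, and 3.87 in WT mTEChi. Col5a3 over Col5a1 averaged 0.0378 and 0.752, and Col9a1 over Col9a2 0.0258 and 0.379. The X-linked pair Col4a5 over Col4a6 averaged 15 and 3.53. In cHyper the same pairs averaged 2.13 and 15.4 for type I, 1.44 and 1.45 for Col4a1 over Col4a2, and 2.78 and 2.89 for Col6a1 over Col6a2. A two-sided exact permutation test of 3 libraries against 3 cannot go below p = 0.1, which every tested pair whose groups did not overlap reached (adjusted p = 0.189 over 53 such tests), so no ratio passed. Col11a1 over Col11a2 was not tested between the cell types, as its ratio is 0 in libraries of mTEClo without a Col11a1 fragment.

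**Figure D3:**
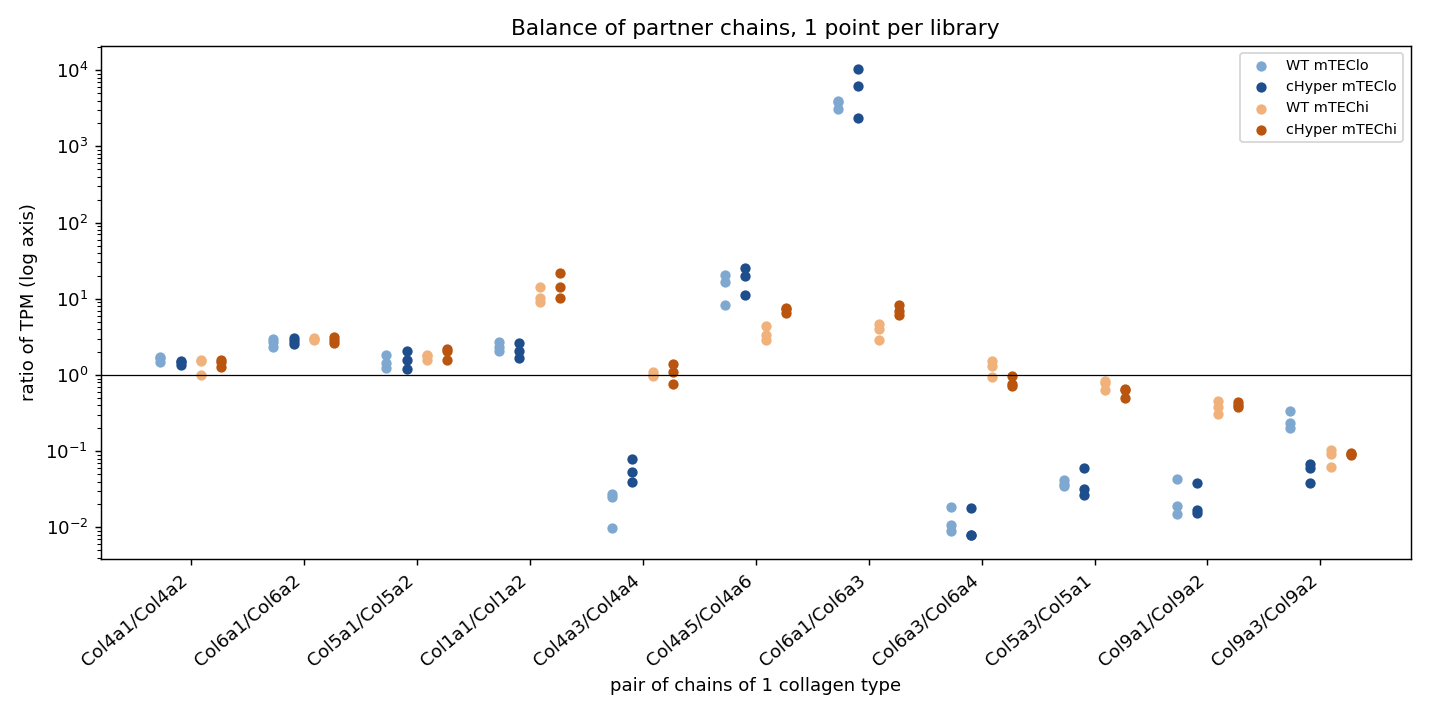
Ratio of TPM of 2 chains of the same collagen type (log y axis) in each of the 12 libraries, coloured by group; the line is at 1. Col4a1/Col4a2, Col6a1/Col6a2 and Col5a1/Col5a2 overlap between mTEClo and mTEChi, while Col1a1/Col1a2, Col4a3/Col4a4, Col6a1/Col6a3 and Col5a3/Col5a1 do not.

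The genes that fold and secrete collagen were mostly lower in mTEChi, as the 4 most abundant collagens of mTEClo were. Of 23 listed, 15 were lower and 4 higher in WT mTEChi, and 17 were lower and 1 higher in cHyper mTEChi (median log2 -0.59 and -0.49). Of all genes, 29.4% were lower and 40.2% higher in WT, and 25.8% and 38.7% in cHyper. The same shares stand beside the counts of the lists that follow. The collagen chaperone Serpinh1 stood at 416 ± 26 CPM in WT mTEClo and 70.2 ± 4.52 in WT mTEChi (log2 -2.57), the lysyl hydroxylase Plod2 at 104 ± 1.82 and 12.7 ± 0.746 (log2 -3.03), and the collagen foldase Fkbp10 at 65 ± 3.79 and 3.83 ± 0.418 (log2 -4.08). Of 17 partners of collagen IV in the basement membrane, 12 were lower and 3 higher in WT mTEChi, and 13 were lower and 3 higher in cHyper mTEChi. The laminin chain Lamb3 was lower (log2 -3.26 in WT), while Nid1, the linker of laminin and collagen IV networks, stood at 1.76 ± 0.139 CPM in WT mTEClo and 74.9 ± 9.07 in WT mTEChi. Of 13 genes of procollagen processing and cross-linking, 5 were higher and 6 lower in WT mTEChi, and 4 and 4 in cHyper mTEChi. The cross-linking oxidase Lox fell by 4.18 on the log2 scale between WT mTEClo and WT mTEChi, and its relative Loxl4 was higher (log2 4.46).

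Markers of other cells moved between the cell types as well. The counts of called markers below stand beside 40.2% of all genes called higher and 29.4% lower in WT mTEChi. The summed level of 12 fibroblast markers was 323 to 362 CPM in WT mTEClo and 213 to 286 in WT mTEChi, with 6 called higher and 3 lower. For 8 pericyte and smooth muscle markers the sums were 3812 to 4294 and 915 to 1229 CPM (2 higher, 6 lower). For 8 endothelial markers they were 17.6 to 21 and 85 to 107 CPM (7 of 7 tested higher), and for 9 myeloid markers 31.8 to 35.8 and 522 to 694 (9 higher). Of 9 thymocyte and 5 B cell markers, 7 and 5 were higher in WT mTEChi, with sums of 14.8 to 28.3 and 8.03 to 11.4 CPM in WT mTEClo and 62.2 to 73.9 and 67.5 to 69.7 in WT mTEChi. Of 8 cortical epithelial markers 4 were higher and 3 lower. In cHyper the sums were 281 to 305 and 191 to 210.2 CPM for fibroblast and 3167 to 4154 and 1468 to 1926 for pericyte markers, in mTEClo and mTEChi. No marker of these lists was at 0 in all libraries of a group. Of the fibroblast list, Pdgfrb, Thy1, Mfap5, Pi16, Fap and Twist2 were higher in WT mTEChi, Pdgfrb at 3.24 ± 0.757 and 59.9 ± 11.2 CPM and Thy1 at 1.8 ± 1.47 and 67.5 ± 11, while Dcn, Postn and Fbn1 were lower, Dcn at 123 ± 9.29 and 29.2 ± 1.53 and Fbn1 at 188 ± 11.7 and 49.6 ± 13.1. The part of these cells in the collagen differences was not tested.

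Between the genotypes, the question was what the cHyper genotype changed in the family within each cell type. In mTEClo, 3 collagens rose in cHyper (Col3a1, Col16a1 and Col2a1) and 8 fell (Col9a3, Col4a4, Col14a1, Col8a1, Col6a4, Col17a1, Col20a1 and Col11a2). This is 25% of the family, against 9.16% of all genes called either way (4.53% higher and 4.64% lower). The median log2 change of the 44 members was -0.23, beside 0.0015 over all genes tested, and 27 of 44 were negative under each of the 3 scalings. Without overlap between the groups 5 members lay higher and 10 lower in cHyper, or 11.4% and 22.7% of the family, against 12.2% and 13% of genes (25.2% either way). All 11 calls had the same direction in replicates 1 and 2 as in replicate 3, but they were made from these same libraries, so this is no separate check. Of 11 mTEC markers, Aire rose from 14.3 ± 2.6 to 44.5 ± 6.46 CPM and Cd80, which is higher in mTEChi, fell (log2 -1.03), and their part in the collagen changes was not tested. The comparisons share libraries with those above, so Col9a3, Col4a4 and Col6a4, lower in WT mTEChi and in cHyper mTEClo, were set against the same WT mTEClo libraries both times.

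**Figure D4:**
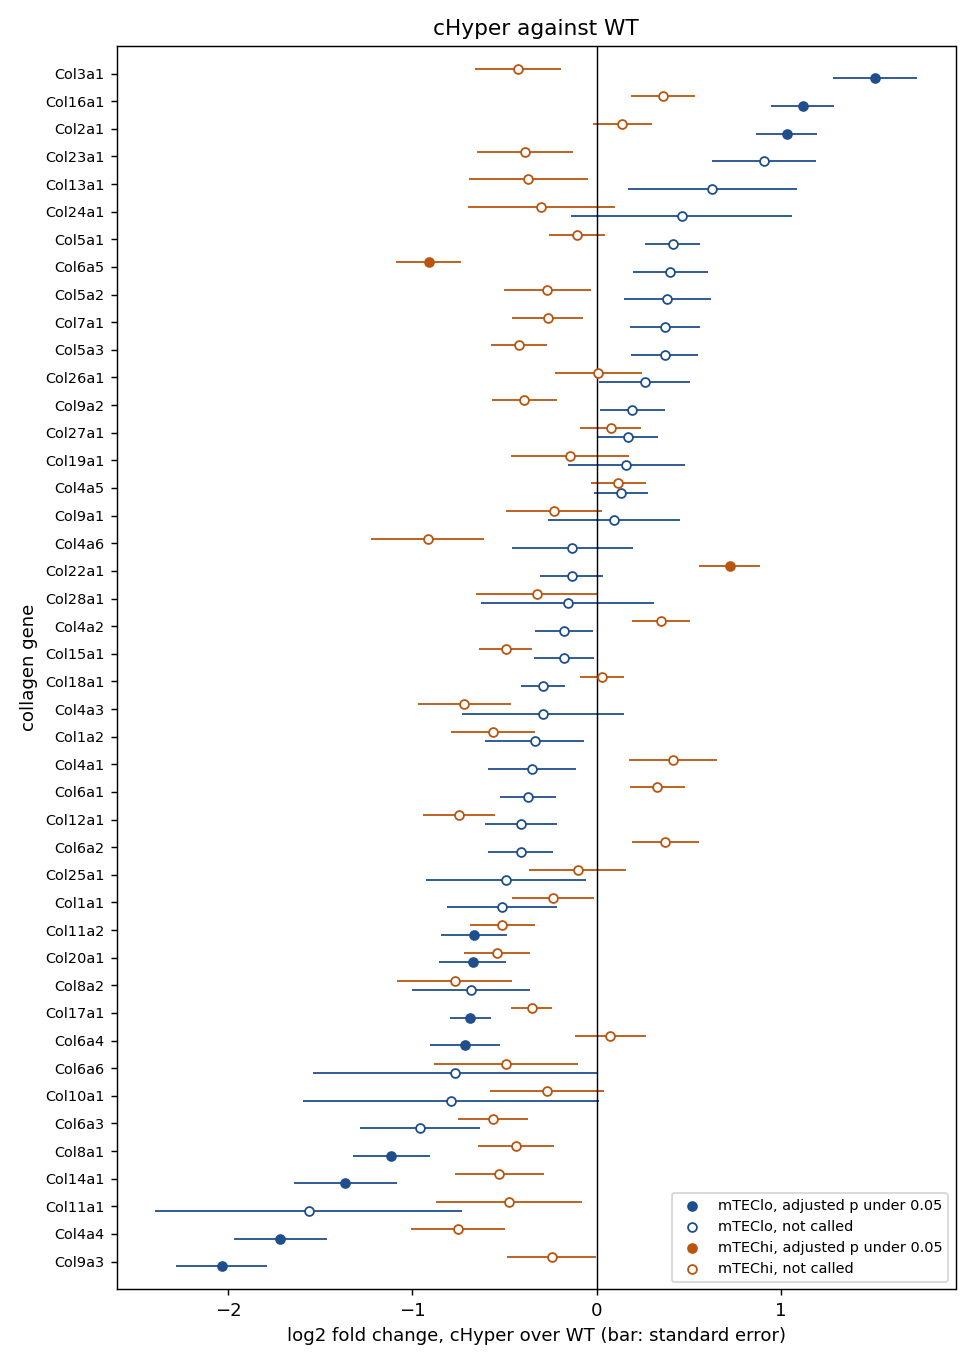
Log2 fold change of cHyper over WT (x axis) for the 44 collagen genes (y axis), in mTEClo (blue) and mTEChi (orange), with bars of 1 standard error; filled points have an adjusted p under 0.05. Of the filled points, 11 are in mTEClo, from Col9a3 at -2.04 to Col3a1 at 1.51, and 2 in mTEChi, Col6a5 and Col22a1.

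Col3a1 (ENSMUSG00000026043, chromosome 1, 45311538 to 45349706), the fibril collagen of vessel walls and soft tissues, rose most. It read 25.8, 25.5 and 20.6 CPM in WT mTEClo and 61.2, 100.005 and 44.1 in cHyper mTEClo. The WT libraries all lay below the lowest cHyper library, although the latter group's libraries spread more than 2-fold among themselves. The change was 2.85-fold (log2 1.51, SE 0.23, adjusted p = 7.01e-04), with a log2 change of 1.63 in replicates 1 and 2 and 1.10 in replicate 3. Col3a1 is also a marker of fibroblasts, and 12 other fibroblast markers were measured beside it. Of these 25% were called, against 9.16% of all genes, where Dpt and Postn rose (log2 2.55 and 0.66) and Pdgfra fell (log2 -1.61). Their summed level was 323 to 362 CPM in WT mTEClo and 281 to 305 in cHyper mTEClo, most of it from Fbn1 (188 ± 11.7 and 137 ± 7.91) and Dcn (123 ± 9.29 and 101 ± 12.1). The part of fibroblasts in the Col3a1 change was not tested. Col1a1 and Col1a2, the other main fibroblast collagens, stood at 1.71 ± 0.497 and 1.55 ± 0.474 CPM in cHyper mTEClo, against 2.47 ± 0.203 and 2.02 ± 0.421 in WT, and were not called.

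Col16a1, a fibril-associated collagen found near basement membranes, read 96.1, 79.6 and 85.4 CPM in WT mTEClo and 246, 193 and 128 in cHyper mTEClo. It was 2.17-fold higher (log2 1.12, SE 0.17, adjusted p = 7.75e-04), with replicate 3 the lowest of the cHyper libraries and still above all of WT. The cartilage collagen Col2a1 (12.3, 11.4 and 14.1 in WT and 29.8, 23.2 and 23.9 CPM in cHyper) was 2.04-fold higher (log2 1.03, SE 0.16, adjusted p = 0.00106). Its partner in cartilage fibrils, Col11a2, fell from 9.78 ± 0.923 to 6.19 ± 1.04 CPM, so that Col2a1 over Col11a2 in TPM was 0.846, 0.934 and 1.1 in WT and 3.24, 3.45 and 2.65 in cHyper. The Col11a2 call (log2 -0.66, adjusted p = 0.0306) ended without replicate 1 or 3 of WT mTEClo or replicate 2 of cHyper mTEClo (0.0587 to 0.133) and with replicates 1 and 2 only (0.0509).

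Col9a3 (ENSMUSG00000027570, chromosome 2, 180597790 to 180622189) fell most. It read 5.62, 7.66 and 9.43 CPM in WT mTEClo and 1.46, 1.93 and 2.16 in cHyper mTEClo. No cHyper library reached the WT range. The fall was 4.1-fold (log2 -2.04, SE 0.25, adjusted p = 1.04e-04), with log2 changes of -1.99 in replicates 1 and 2 and -2.13 in replicate 3. The other type IX chains did not pass (log2 0.10 for Col9a1 and 0.19 for Col9a2), and Col9a3 over Col9a2 in TPM was 0.202, 0.235 and 0.34 in WT and 0.0388, 0.0607 and 0.0688 in cHyper. Tcfl5 overlaps 6.07% of the exon bases of Col9a3 on the opposite strand, so its reads may be part of this value. Of the cartilage list, Matn4 and Ucma rose (5.89 ± 0.725 to 28.6 ± 6.22 CPM for Matn4) and Matn1 fell (32.2 ± 8.91 to 3.75 ± 0.583), 2 higher and 1 lower of 14. That is 21.4% of the list, against 9.16% of all genes.

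Col4a4 read 12, 9.95 and 15.9 CPM in WT mTEClo and 5.004, 3.1 and 3.3 in cHyper mTEClo, without overlap, a 3.29-fold fall (log2 -1.72, SE 0.25, adjusted p = 5.60e-04). No other type IV chain passed in mTEClo, the major chains Col4a1 and Col4a2 standing at log2 -0.35 and -0.17 with adjusted p of 0.412 and 0.55. Col14a1 read 6.71, 9.03 and 12.5 CPM in WT and 2.17, 3.13 and 5.95 in cHyper, with cHyper replicate 3 nearest to WT. It was 2.57-fold lower (log2 -1.36, adjusted p = 0.00659), which ended with only the mTEClo libraries in the fit (adjusted p = 0.0566). The network collagen Col8a1 read 14.4, 14.4 and 9.66 CPM in WT and 7.72, 5.38 and 4.64 in cHyper and was 2.16-fold lower (log2 -1.11, adjusted p = 0.00369). Col17a1 of the hemidesmosome read 48.8, 45.9 and 51.4 in WT and 29, 34.2 and 27.6 CPM in cHyper, the fall with the smallest SE (1.61-fold, log2 -0.68, SE 0.11, adjusted p = 0.00144). Values in every library are given here for Col2a1, Col8a1 and Col17a1 by a choice made after they were seen.

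A pair of smaller falls in mTEClo depended on single libraries. Col6a4 fell from 51.6 ± 11.7 to 31.5 ± 8.69 CPM (log2 -0.71, adjusted p = 0.0299), which ended without replicate 2 of WT mTEClo or replicate 1 of cHyper mTEClo (0.0896 to 0.111), with replicates 1 and 2 only (0.0846) and with only the mTEClo libraries (0.0762). Col20a1 fell from 9.61 ± 1.48 to 6.01 ± 1.33 CPM (log2 -0.67, adjusted p = 0.0322), which ended without replicate 1 or 2 of WT mTEClo or replicate 2 or 3 of cHyper mTEClo (0.0666 to 0.122) and with only the mTEClo libraries (0.0634). The dominant type VI chains did not pass, at log2 -0.37 for Col6a1 and -0.41 for Col6a2 (adjusted p = 0.148 and 0.18). Col23a1 stood at 1.99 ± 0.837 and 3.8 ± 0.826 CPM and missed the threshold (log2 0.91, adjusted p = 0.0613). It passed with DESeq2, with no filter and without replicate 1 of WT mTEClo. With the replicate number as a block it passed too (0.0397), as did Col12a1 (log2 -0.40, 0.0155) and Col8a2 (log2 -0.74, 0.0301). Col6a3, at 0.875 ± 0.211 and 0.501 ± 0.287 CPM, also missed the threshold (log2 -0.96, adjusted p = 0.0812). It passed as lower with DESeq2, with no filter, with replicates 1 and 2 only (0.0221) and without replicate 3 of cHyper mTEClo. Without replicate 3 of cHyper mTEClo, Col5a1 and Col5a2 also passed as higher, and without replicate 2 of WT mTEClo, Col6a5 and Col7a1, so that 5 rose in each case. In these fits 3.86% and 4.03% of all genes were called higher.

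The machinery of collagen changed in parts in cHyper mTEClo. Of 23 folding and secretion genes 4 rose and 1 fell, or 21.7% called, against 9.16% of all genes (4.53% higher and 4.64% lower). The same shares of all genes stand beside the 2 lists below, of which 46.2% and 35.3% were called. Plod2, which hydroxylates lysines of the chain ends for cross-linking, rose from 104 ± 1.82 to 169.6 ± 4.08 CPM (log2 0.71, adjusted p = 6.45e-04), with Colgalt2 (log2 1.54), the prolyl 3-hydroxylase P3h2 (0.77) and the prolyl 4-hydroxylase subunit P4ha1 (0.56). Fkbp10 fell from 65 ± 3.79 to 35.8 ± 4.7 CPM. Of 13 processing and cross-linking genes 1 rose and 5 fell, the falls being the procollagen proteinases Adamts2 (log2 -0.85), Adamts14 (-1.15) and Bmp1 (-0.41) and the oxidases Loxl1 (-0.96) and Loxl3 (-0.80). Of 17 basement membrane partners 3 rose and 3 fell, among them the laminin chain Lama5, which fell from 122 ± 8.98 to 63.4 ± 5.06 CPM (log2 -0.95, adjusted p = 1.52e-05).

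In mTEChi few collagens passed. Col22a1 rose and Col6a5 fell in cHyper, 1 of 44 each (2.27%), against 1.56% of all genes higher, 0.418% lower and 1.98% either way. With the other scalings the split of all called genes moved from 451 higher and 121 lower to 352 and 181 (size factors of DESeq2) or 335 and 185 (library totals). The family's median log2 change was -0.31, beside -0.0037 over all genes. With these scalings it was -0.36 and -0.38, beside -0.0603 and -0.0717 over all genes, which shifted the same way. Of the 44 members 32 were negative, beside 14591 of all 28932 genes tested. With either other scaling 34 members were negative. Without overlap 4 members lay higher and 20 lower in cHyper, 9.09% and 45.5% of the family, against 12.4% and 13.3% of genes (25.7% either way). At an unadjusted p under 0.05 there were 18 members, against 15% of all genes.

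Col6a5 (ENSMUSG00000091345, chromosome 9, 105856078 to 105960643) read 50.6, 46.5 and 49.1 CPM in WT mTEChi and 26, 25.6 and 26 in cHyper mTEChi, 2 tight groups without overlap. It was 1.88-fold lower (log2 -0.91, SE 0.18, adjusted p = 0.0135), and log2 -0.91 both in replicates 1 and 2 and in replicate 3. The call ended with replicates 1 and 2 only (adjusted p = 0.11), and on leaving out single libraries the adjusted p was 0.0515 to 0.0697 without replicate 1 or 3 of WT mTEChi or any one cHyper mTEChi library. Col22a1 (ENSMUSG00000079022, chromosome 15, 71795795 to 72034227) read 17.4, 19.4 and 16.8 CPM in WT and 32.4, 28.7 and 27.2 in cHyper, also without overlap. It was 1.65-fold higher (log2 0.72, SE 0.16, adjusted p = 0.0361). That call ended without any one of the 6 mTEChi libraries (0.076 to 0.182), with replicates 1 and 2 only and with either other scaling.

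Several further collagens stood lower in cHyper mTEChi without passing. Col12a1 was at 168 ± 30.9 CPM in WT and 100 ± 11.5 in cHyper (log2 -0.75, adjusted p = 0.0709), Col4a4 at 5.43 ± 0.422 and 3.26 ± 1.01 (log2 -0.75, adjusted p = 0.176), Col15a1 at 36.1 ± 2.94 and 25.6 ± 1.65 (log2 -0.49, adjusted p = 0.109) and Col17a1 at 73.3 ± 9.9 and 57.3 ± 2.43 (log2 -0.35, adjusted p = 0.143). With the replicate number as a block, Col12a1 (0.00104) and Col4a4 (0.0469) passed, and 3 members fell in place of 1, against 1.07% of all genes called lower in that fit. By DESeq2 9 fell, against 2.98% of all genes it called lower, and these were Col4a3, Col4a4, Col6a3, Col6a5, Col11a2, Col12a1, Col15a1, Col17a1 and Col20a1. Without replicate 3 of WT mTEClo or replicate 3 of cHyper mTEClo Col12a1 passed as well, which made 2, against 0.451% and 0.629% of all genes. On leaving out single libraries its adjusted p ran from 0.0225 to 0.272. Of the 8 other alternatives 7 called Col12a1 lower, all but limma-voom, with an adjusted p of 0.00491 in replicates 1 and 2 only. The 4 chains that dominate mTEClo stood higher in cHyper mTEChi, at log2 0.42 for Col4a1, 0.35 for Col4a2, 0.33 for Col6a1 and 0.37 for Col6a2, and none passed (adjusted p from 0.316 to 0.437). 

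Among the genes that serve collagen, 8.7% of the folding genes and 23.5% of the basement membrane partners passed in mTEChi. Of all genes 1.98% passed (1.56% higher and 0.418% lower), and of the 13 processing genes 0 did. Plod2 rose from 12.7 ± 0.746 to 39.6 ± 6.53 CPM (log2 1.64, adjusted p = 2.45e-06) and Serpinh1 from 70.2 ± 4.52 to 120.3 ± 24.2 (log2 0.78, adjusted p = 0.009), 2 of 23 folding genes. The laminin chains Lama3, Lamb1 and Lamb3 rose and Lamb2 fell, 4 of 17 partners. The keratins Krt5 and Krt14 and the chemokine Ccl21a, all higher in mTEClo than in mTEChi, rose in cHyper mTEChi as well (log2 0.97, 1.17 and 1.04). The pericyte and smooth muscle markers summed to 915 to 1229 CPM in WT and 1468 to 1926 in cHyper mTEChi. Most of each sum, and of the rise, came from Rgs5, at 742, 712 and 540 CPM in WT and 993, 1209 and 1455 in cHyper. Rgs5 was the only 1 of the 8 called. The log2 change was positive for 5 of the 8 and negative for 3. The part of these markers in the type IV and VI levels was not tested.

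**Figure D5:**
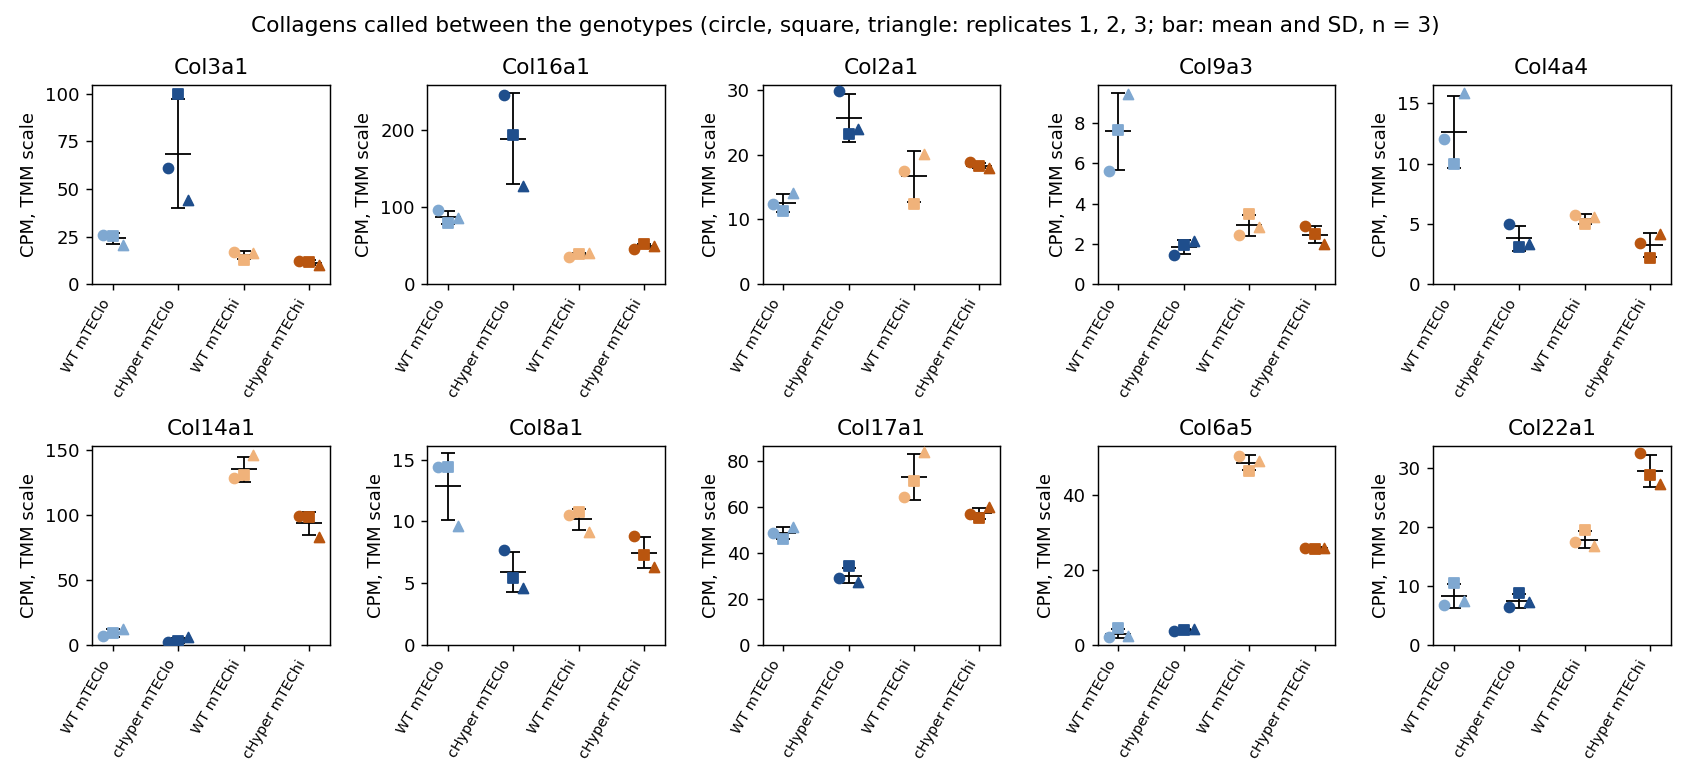
Levels of 10 of the collagens called between the genotypes, in CPM on the TMM scale (y axis), for the 4 groups (x axis); points are libraries and bars the mean and SD (n = 3). Col3a1, Col16a1 and Col2a1 are higher and Col9a3, Col4a4, Col14a1, Col8a1 and Col17a1 lower in cHyper mTEClo than in WT mTEClo, and Col6a5 and Col22a1 separate the genotypes in mTEChi.

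Whether the genotype effect itself differed between the cell types was tested as the effect in mTEChi minus that in mTEClo. Of the 44 members 3 passed (6.82%), against 2.06% of all genes (1.13% higher and 0.926% lower). Col3a1 was higher in cHyper mTEClo but stood at 17, 12.7 and 16.2 CPM in WT mTEChi and 12.3, 11.8 and 9.87 in cHyper mTEChi, a log2 difference of effects of -1.94 (SE 0.33, adjusted p = 0.0066). Col9a3 fell in mTEClo and read 2.44, 3.49 and 2.85 CPM in WT and 2.88, 2.47 and 2.02 in cHyper in mTEChi, where the groups overlapped (difference 1.79, SE 0.34, adjusted p = 0.0146). Col6a5 fell in mTEChi and read 2.17, 4.42 and 2.39 CPM in WT and 3.86, 4.02 and 4.19 in cHyper in mTEClo (difference -1.31, SE 0.27, adjusted p = 0.0211). The Col9a3 call ended without replicate 1 of cHyper mTEChi (0.0532), and that of Col6a5 without replicate 1 or 3 of WT mTEChi or replicate 2 or 3 of cHyper mTEChi (0.0521 to 0.0593). With replicates 1 and 2 only, both calls ended (0.0603 and 0.177). With the replicate number as a block 8 passed, against 4.1% of all genes, Col4a1 (difference 0.82, adjusted p = 0.0271), Col6a1 (0.72, 0.0318), Col6a4 (0.79, 0.0355), Col22a1 (0.86, 0.0317) and Col2a1 (-0.87, 0.027) being added. The other mTEClo calls did not pass this test, so a genotype effect of Col16a1 (difference -0.76, adjusted p = 0.142), Col4a4 (0.97, 0.211) or Col14a1 (0.83, 0.315) is not shown to differ between the cell types. Without replicate 3 of cHyper mTEClo, Col14a1 (1.28, 0.0319) and Col16a1 (-0.97, 0.00768) passed, and with replicates 1 and 2 only Col14a1 did (1.20, 0.0493).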

How the data were processed

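RNA-seq libraries of sorted mTEC were counted per gene by the authors, who deposited 1 table with fragment counts, TPM and gene lengths, per the file headers. The submitters' processing notes name the build mm10, Subread 2.0.1 with featureCounts, SAMtools 1.9 and TopHat2 2.1.1. Neither the strand setting nor the annotation is given in the sources used here. The 12 count columns were used as deposited; replicates 1 and 2 each combine 2 samples that carry run tags. Members and lists were chosen with earlier results of these data known. The test was that of edgeR 4.0.16 under R 4.3.3, applied to the deposited counts (TMM scaling, genes kept by filterByExpr with a minimum count of 10, quasi-likelihood F test, all 12 libraries in 4 groups, Benjamini-Hochberg adjustment over 28932 genes). Alternatives were DESeq2 1.42.0, voom of limma 3.58.1, other scalings, no filter, each library left out, subsets of the libraries and the replicate number as a block. Libraries of the same number deviated together from their group means (correlations of 0.171 to 0.373, higher than with any other number in all 12 checks), so the numbers pair the libraries, a hint from the data and not from the labels. The test was checked on simulated counts with known fold changes. Values in every library are printed for 30 members called in a comparison, those with the largest log2 changes and a mean of at least 1 CPM in a group, and members of at least 20 TPM in a group are described. Of other lists, the genes with the smallest p were named; P4ha1, Bmp1, Loxl1, the fibroblast markers and, between cell types, Serpinh1 were named after their values were seen.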

Additional observations from a re-analysis of the deposited data

Results flagged for a closer look

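The genotype effect of 3 collagens differed between mTEClo and mTEChi by the test of the difference itself (effect in mTEChi minus effect in mTEClo, edgeR's quasi-likelihood test with Benjamini-Hochberg adjustment, 3 libraries a group). For Col3a1 the difference was -1.94 on the log2 scale, from 1.51 in mTEClo and -0.43 in mTEChi (adjusted p = 0.0066). For Col9a3 it was 1.79, from -2.04 and -0.24 (adjusted p = 0.0146). For Col6a5 it was -1.31, from 0.40 and -0.91 (adjusted p = 0.0211). With replicates 1 and 2 only, the adjusted p was 0.0189 for Col3a1, 0.0603 for Col9a3 and 0.177 for Col6a5. With each library left out in turn, the Col3a1 call held (adjusted p at most 0.0254). The Col9a3 call ended without replicate 1 of cHyper mTEChi (0.0532). That of Col6a5 ended without replicate 1 or 3 of WT mTEChi or replicate 2 or 3 of cHyper mTEChi (0.0521 to 0.0593).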

How the results depend on the processing

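Counts of calls between the cell types moved little, and those between the genotypes in mTEChi moved more. Across libraries left out in turn, the collagens higher and lower in mTEChi numbered 22 to 23 and 13 to 15 in WT, and 20 to 21 and 12 to 15 in cHyper. Those higher and lower in cHyper numbered 3 to 5 and 6 to 9 in mTEClo, and 0 to 1 and 0 to 2 in mTEChi, and the difference of effects gave 0 to 2 higher and 1 to 3 lower. In mTEClo, only the groups compared gave 5 lower in place of 8, with 40 members tested. In that fit 4.51% of all genes were lower, in place of 4.64%. In mTEChi the number higher was 0 with DESeq2 size factors, library totals or replicates 1 and 2 only. Of all genes 1.22%, 1.16% and 0.871% were higher in these fits. The number lower in mTEChi, 1 by edgeR, was 2 with DESeq2 size factors, 2 with library totals and 2 with no filter. It was 3 with limma-voom, 3 with the replicate block, 6 with only the groups compared and 9 with DESeq2. Of all genes, 0.418% were lower by edgeR, 0.626% with DESeq2 size factors, 0.639% with library totals and 0.495% with no filter. The share was 1.22% with limma-voom, 1.07% with the replicate block, 1.93% with only the groups compared and 2.98% with DESeq2. The difference of effects gave 5 higher with no filter, 3 with DESeq2 and 5 with the replicate block, in place of 1. Of all genes 1.26%, 2.66% and 2.36% were higher in these fits, in place of 1.13%. Lower by the difference of effects were 5 with no filter, 6 with DESeq2, 3 with the replicate block and 1 with replicates 1 and 2 only, in place of 2. The shares of all genes were 1.17%, 3.27%, 1.74% and 0.415%, in place of 0.926%. The replicate block changed no call other than those given with the results. No called value changed sign under any alternative, and the order of levels was the same in RPKM as in TPM for 40 of 44 members in WT mTEChi and all 44 in the other groups. The cause of these changes was not tested. Members with under 1 CPM in mTEClo, such as Col10a1, Col11a1 and Col6a6, rest on few fragments, which limits the precision of their fold changes.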

Other observations

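Collagen receptors and the enzymes that degrade collagen were measured as well. Of 10 receptors, 6 were higher and 3 lower in WT mTEChi, against 40.2% and 29.4% of all genes, and 5 and 3 in cHyper mTEChi, against 38.7% and 25.8%. The collagen-activated kinase Ddr1 stood at 413 ± 44 CPM in WT mTEClo and 67.4 ± 3.59 in WT mTEChi (log2 -2.62), and rose in cHyper mTEChi (log2 0.75, adjusted p = 0.0102). The leukocyte receptor Lair1 and the uptake receptor Mrc2 were higher in mTEChi (log2 5.02 and 5.21 in WT). Of 10 proteases and inhibitors, 5 were higher and 5 lower in WT mTEChi, and 3 and 4 in cHyper mTEChi, beside the same shares of all genes. The gelatinase Mmp2 stood at 119 ± 16.9 CPM in WT mTEClo and 7.94 ± 0.511 in WT mTEChi, and the collagenase Mmp13, known from cartilage and bone, at 0.148 ± 0.0935 and 20.9 ± 3.85. In cHyper mTEClo the inhibitor Timp3 rose and Timp2 fell (log2 0.56 and -0.37).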
